A study of Mus musculus with 18 samples.

Results

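A set of 10 genes of the Nodal and TGF-beta pathway were followed through polysome profiling of mouse embryonic stem cells (ESCs) with and without the RNA helicase DDX6. They were the ligand Nodal, the ligand antagonists Lefty1 and Lefty2, the type I receptors Tgfbr1 and Acvr1b, the type II receptors Tgfbr2, Acvr2a and Acvr2b, and the receptor SMADs Smad2 and Smad3. All 10 were found by symbol among the 51467 genes of the count table, and all 10 passed the filter on low counts, which kept 12705 genes. They were listed by symbol for their place in the pathway, with earlier results of these data known.

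V6.5 ESCs that were wild type (WT) were compared with ESCs of the same line in which Ddx6 was knocked out (KO). Both were kept in medium with 15% serum, LIF and 2i, a pair of inhibitors named PD0325901 and CHIR99021. The KO lines are CRISPR-Cas9 clones, of which clone 1 gave KO gradient 1 and clone 2 gave the other two KO gradients. All cultures were held in cycloheximide at 100 ug/ml for 2 min to arrest ribosomes, and each lysate was spun through a sucrose gradient to separate mRNAs with a single ribosome (the monosome) from those with 2 to 4 ribosomes (low polysome) and those with at least 4 (high polysome). With 3 gradients per genotype this gave 18 libraries in 6 groups of 3. The labels do not say whether gradients came from separate cultures, so p-values measure the spread between the libraries of a group. Those over all fractions treat the 3 fractions of a gradient as independent, though they come from the same lysate.

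DDX6 acts in translational repression and in mRNA decay, and it works with the machinery through which miRNAs silence their targets. Nodal and the activins bind type II receptors such as ACVR2A and ACVR2B, which then activate type I receptors such as ACVR1B. TGF-beta ligands signal in the same way through TGFBR2 and TGFBR1. Both routes phosphorylate SMAD2 and SMAD3, which enter the nucleus with SMAD4 and switch on genes that include Nodal itself and Lefty1 and Lefty2. The LEFTY proteins are secreted antagonists of Nodal, so the pathway carries its own brake.

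Because ESCs hold a large family of miRNAs with one seed, the ESCC family, the 3′ UTRs of the 10 genes were searched for its target sites. The mature sequences of 3 members from the RefSeq miRNA table (GRCm38.p6) are shown here with the shared seed, bases 2 to 8, in capitals.
mmu-miR-291a-3p: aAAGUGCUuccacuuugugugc
mmu-miR-294-3p: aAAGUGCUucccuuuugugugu
mmu-miR-302b-3p: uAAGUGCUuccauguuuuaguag

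The sites searched on the transcript strand were the 8mer AGCACTTA, the 7mer AGCACTT without the last A, and the 7mer GCACTTA, where a 7mer inside an 8mer was counted as the 8mer. A single Gencode M21 transcript per gene was used. Lefty1 and Lefty2 each held an 8mer, at chr1:180938213-180938220 and chr1:180897917-180897924 of GRCm38, both on the plus strand. Tgfbr1 held the first 7mer at chr4:47411119-47411125 on the plus strand, and Tgfbr2 held it at chr9:116089881-116089887 on the minus strand. These 4 sites are shown in capitals within their surroundings, so that their letters can be compared with the seed.
Lefty1: actgtatgcgaAGCACTTAcatgtatagat
Lefty2: cacccagtttaAGCACTTAcatgggtaaat
Tgfbr1: gcactaaatgaAGCACTTctgattttcac
Tgfbr2: gggatagcgttAGCACTTgacaatcagtc

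Smad2 held 3 of these 7mers in a 3′ UTR of 6233 bases, the longest of the 10. No site was found in the 3′ UTR used for Nodal, Acvr1b, Acvr2a, Acvr2b or Smad3. Genes with a site did not share a direction or size of difference between KO and WT: on the log2 scale over all fractions Lefty2 was at -2.54, Lefty1 at -0.89, Tgfbr1 at -0.53, Smad2 at -0.02 and Tgfbr2 at 2.81. The 5 genes without a site lay between -0.19 (Smad3) and 0.56 (Acvr1b). The study reports higher translation of ESCC targets as a group in KO, with little change in mRNA stability. Its targets were conserved ones from a prediction list (TargetScan), and its stability was total RNA relative to newly made RNA. Sites here were found by sequence match alone, and abundance in the fractions is not stability. Whether the genes with a site belong to the study's target set was not checked. For the KO effect on high polysome over monosome, Lefty2 was at -0.67, Tgfbr2 at -0.51, Tgfbr1 at -0.49, Lefty1 at 0.40 and Smad2 at 0.49. Genes without a site ran from -0.54 (Acvr1b) to 0.70 (Smad3), and 0 of the 10 were called. The part of the sites in either measure was not tested. Among 11674 genes past the filter with an annotated 3′ UTR, 3.32% held the 8mer and 19.3% held at least 1 of the 3 sites. Among the 8485 of these whose UTR was as long as those of the 10 genes (425 to 6233 bases), the shares were 3.96% and 23.9%. A match is a description of the sequence and does not show that a miRNA binds there.

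Library totals ranged from 2543617 to 11474550 gene counts, and the WT monosome libraries were the shallowest. Levels are given as CPM, the counts of a gene relative to the library total after TMM scaling. Each read came from the 3′ end of a transcript, so CPM was compared between genes without division by length. The targeted gene was lower in every KO library: Ddx6 stood at 143 to 212 CPM in the 9 WT libraries, at 55.3 to 82.7 CPM in the 3 libraries of KO clone 1 and at 9.68 to 26.7 CPM in the 6 of clone 2. Naive ESC markers summed to 1727 to 3178 CPM in WT and 1673 to 3069 CPM in KO, sums that hold members called in both directions. Of these 7 markers, Nanog and Klf4 rose by 0.40 and 0.41 over all fractions (log2, limma adjusted p = 0.00244 and 0.000478), and Sox2 and Tfcp2l1 fell by 0.42 and 0.53 (adjusted p = 1.37e-05 and 1.09e-06). Markers of fibroblasts or feeder cells summed to at most 6.25 CPM in any library.

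The question asked of these libraries was whether the loss of DDX6 moved each mRNA in abundance or between fractions. Abundance was compared as the log2 difference between KO and WT within each fraction, and as the mean of the 3 fractions with equal weight, since total RNA was not part of this table. In that mean, 4 of the 10 genes rose in KO (Nodal, Acvr1b, Tgfbr2 and Acvr2a) and 4 fell (Lefty1, Lefty2, Tgfbr1 and Acvr2b), at an adjusted p under 0.05 (limma voom, Benjamini-Hochberg over all genes). Of all 12705 genes tested, 30.6% rose and 31.5% fell in this comparison, so 4 in each direction was not far from the share among all genes. The median of the 10 was -0.09 beside -0.02 for all genes. The sizes were uneven, since Lefty2 and Tgfbr2 lay near opposite ends of all genes, at the 0.763 and 98.9 percentiles of the difference.

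**Figure D1:**
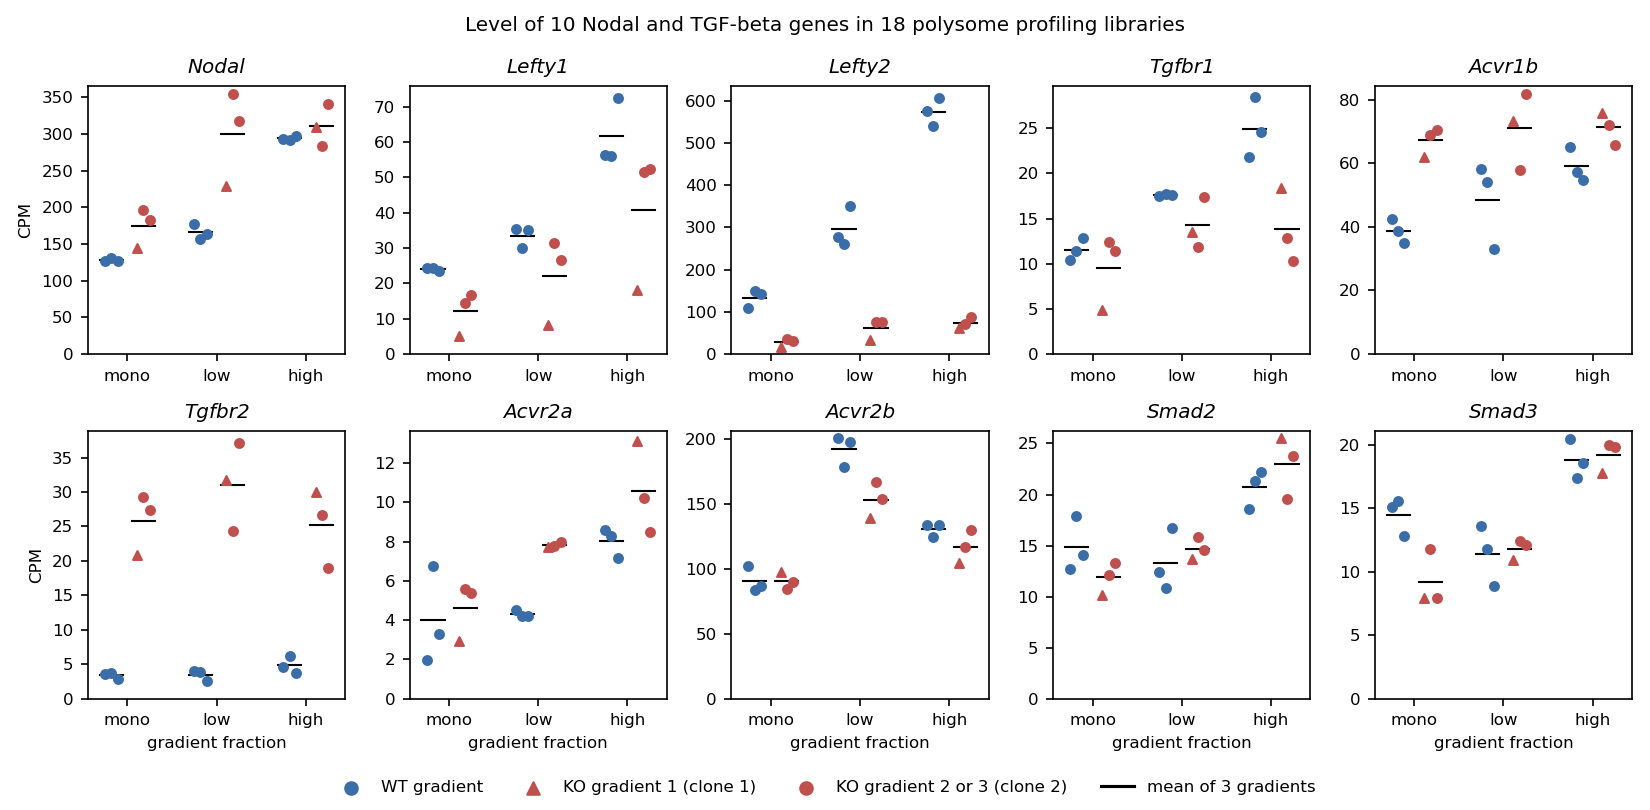
Level of each gene in CPM (vertical axis, from 0, a separate scale for each gene) by gradient fraction, from monosome to high polysome. Blue points are WT gradients, red triangles KO gradient 1 of clone 1, red circles KO gradients 2 and 3 of clone 2, and bars the mean of 3 gradients. Lefty2 in KO (17.6 to 88.1 CPM) lies below every WT library (109 to 606 CPM), and Tgfbr2 in KO (19 to 37.2 CPM) lies above every WT library (2.54 to 6.20 CPM).

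Nodal, the ligand, was one of the better expressed of the 10 genes. In gradients 1, 2 and 3 of WT it stood at 127, 131 and 127 CPM in the monosome, 177, 157 and 163 CPM in the low polysome, and 293, 292 and 297 CPM in the high polysome. In KO it stood at 144, 196 and 183 CPM in the monosome, 229, 354 and 318 CPM in the low polysome, and 309, 283 and 341 CPM in the high polysome. Every KO library was above every WT library in the monosome and low polysome, and the genotypes overlapped in the high polysome. Over all fractions Nodal rose by 0.45 ± 0.08 on the log2 scale (SE, 1.36-fold, adjusted p = 9.7e-05). The rise was 0.84 ± 0.14 in the low polysome (adjusted p = 7.51e-05) and 0.42 ± 0.15 in the monosome (adjusted p = 0.0288), while the high polysome difference was 0.08 ± 0.14 (adjusted p = 0.677). The monosome call was lost when any 1 WT gradient or either gradient of KO clone 2 was left out, with log2 differences for Nodal of 0.33 to 0.44, and after removal of the coding length trend (0.33, adjusted p = 0.0739). With the fractions summed per gradient, the Nodal difference was 0.29 (adjusted p = 0.0299).

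Lefty2, an antagonist of Nodal and a target of the same signal, was the most abundant of the 10 genes in WT and fell the most. In the WT monosome it stood at 109, 150 and 142 CPM in gradients 1 to 3, and in the KO monosome at 17.6, 35.5 and 30.7 CPM. The low polysome values for Lefty2 were 277, 260 and 352 CPM in WT and 33.5, 76.5 and 75.5 CPM in KO. In the high polysome Lefty2 stood at 577, 541 and 606 CPM in WT and at 60.5, 71.3 and 88.1 CPM in KO. No KO library reached a WT library of any fraction, and the gradient of clone 1 was the lowest of the KO gradients in each. Lefty2 fell by 2.54 ± 0.15 on the log2 scale over all fractions (5.83-fold lower, adjusted p = 1.04e-11). Within fractions Lefty2 fell by 2.31 ± 0.28 in the monosome (adjusted p = 2.13e-06), by 2.33 ± 0.25 in the low polysome (adjusted p = 2.71e-07) and by 2.99 ± 0.24 in the high polysome (adjusted p = 7.58e-09).

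Lefty1, the second antagonist, was lower in KO by less, and its KO clones stood apart. Its monosome level was 24.3, 24.4 and 23.4 CPM in WT gradients 1 to 3 and 5.23, 14.5 and 16.8 CPM in KO. Lefty1 in the low polysome stood at 35.3, 30.1 and 35.0 CPM in WT and 8.27, 31.4 and 26.6 CPM in KO, and in the high polysome at 56.3, 56.1 and 72.5 CPM in WT and 18, 51.5 and 52.4 CPM in KO. The clone 1 library was the lowest in every fraction, and clone 2 overlapped WT in the low polysome. Averaged over fractions, Lefty1 was at 10.5 CPM in clone 1 and at 32.5 and 31.9 CPM in clone 2, beside 36.9 to 43.6 CPM in WT. Over all fractions Lefty1 fell by 0.89 ± 0.25 on the log2 scale (1.85-fold lower, adjusted p = 0.00467). Without the clone 1 gradient the difference for Lefty1 was -0.36 (adjusted p = 0.00323), and a single gradient of clone 1 does not allow a test between clones. Within single fractions the Lefty1 differences were -1.14 ± 0.52, -0.78 ± 0.42 and -0.74 ± 0.36 from the monosome to the high polysome, and none passed the test (adjusted p = 0.0887, 0.13 and 0.101). The monosome difference of Lefty1 was -0.62 with a call (adjusted p = 0.0185) without the clone 1 gradient and -1.12 with a call (adjusted p = 0.00297) when only the groups compared entered the fit. Its high polysome difference was called under 3 alternatives. Among them were the fits without KO gradient 2 (-0.98, adjusted p = 0.0444) or KO gradient 3 (-1.03, adjusted p = 0.0441).

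Lefty1 and Lefty2 lie close together on chromosome 1, Lefty2 at chr1:180893108-180899103 and Lefty1 at chr1:180935022-180938400, and their coding sequences have the same length of 1104 bases. Only uniquely aligned reads were counted, so reads that fit both genes are missing. Of 451 windows of 50 bases in the last 500 bases of each transcript, where 3′ end reads fall, 11 of Lefty1 (2.44%) and 0 of Lefty2 occurred in the other gene. Over the whole transcripts the shared windows came to 17.9% of Lefty1 and 11.6% of Lefty2.

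Markers of the primed epiblast moved in the same direction as the LEFTY genes. The list of 4 markers summed to 103 to 149 CPM in WT libraries and 32.7 to 80.4 CPM in KO libraries, and all 3 of its members that could be tested, Otx2, Dnmt3b and Pou3f1, fell over all fractions, where 31.5% of all genes fell. The fourth, the defining marker Fgf5, had 0 counts in all 18 libraries. Mesendoderm markers summed to 5.97 to 16.2 CPM in WT and 4.59 to 7.37 CPM in KO, ranges that overlapped. Of these 4 markers 2 were tested and 1 fell, Gsc, which reached the filter through WT libraries alone. The part of these markers' cells or states in the Lefty1 and Lefty2 differences was not tested, and in bulk libraries fewer cells that express a gene cannot be told apart from less RNA per cell.

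Ratios of counts within a library do not depend on scaling between libraries, and they were chosen after the values had been seen. Lefty2 counts over Nodal counts ranged from 0.856 to 2.16 with a median of 1.66 in the 9 WT libraries, and from 0.122 to 0.258 with a median of 0.196 in the 9 KO libraries. Lefty2 counts over Lefty1 counts ranged from 4.49 to 10.2 in WT and from 1.38 to 4.05 in KO. Lefty1 counts over Nodal counts ranged from 0.184 to 0.244 in WT and from 0.0361 to 0.182 in KO. The genotypes did not overlap in any of the 3 ratios, and how many other gene pairs separate them was not counted. For Lefty1 over Nodal the gap was narrow, from 0.182 in a KO high polysome to 0.184 in a WT monosome library. Lefty2 mRNA was clearly scarcer relative to Nodal mRNA in each KO library than in any WT library.

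**Figure D2:**
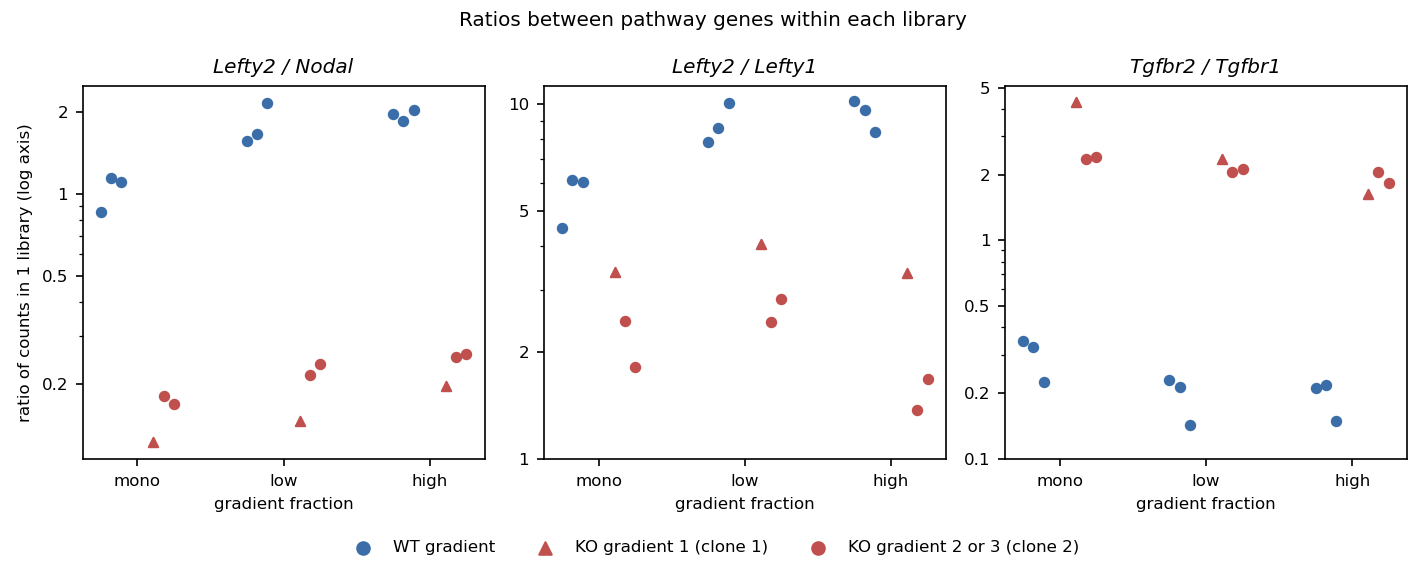
Ratio of the counts of Lefty2 to Nodal, Lefty2 to Lefty1 and Tgfbr2 to Tgfbr1 within each library (vertical axes, log scale) by gradient fraction. Blue points are WT gradients, red triangles the KO gradient of clone 1 and red circles the KO gradients of clone 2. The ratio of Lefty2 to Nodal is 0.856 to 2.16 in WT and 0.122 to 0.258 in KO, and that of Tgfbr2 to Tgfbr1 is 0.144 to 0.346 in WT and 1.63 to 4.29 in KO.

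Tgfbr2, the type II receptor for TGF-beta ligands, was the least abundant of the 10 genes in WT and rose the most. In WT gradients 1 to 3 it stood at 3.58, 3.72 and 2.9 CPM in the monosome, 4.04, 3.8 and 2.54 CPM in the low polysome, and 4.62, 6.20 and 3.67 CPM in the high polysome, from 9 to 62 counts per library. In KO gradients Tgfbr2 stood at 20.8, 29.3 and 27.4 CPM in the monosome, 31.8, 24.3 and 37.2 CPM in the low polysome, and 30, 26.6 and 19 CPM in the high polysome, from 163 to 424 counts. All KO libraries were above all WT libraries, and both clones were high. Tgfbr2 rose by 2.81 ± 0.18 on the log2 scale over all fractions (7.01-fold, adjusted p = 5.94e-11). The rise was 2.89 ± 0.38, 3.17 ± 0.30 and 2.38 ± 0.26 in the monosome, low and high polysome, with adjusted p = 6.52e-06, 7.52e-08 and 3.77e-07 for Tgfbr2.

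Tgfbr1, the type I receptor that pairs with TGFBR2, fell. It stood at 10.4, 11.4 and 12.8 CPM in the WT monosome, 17.5, 17.7 and 17.6 CPM in the WT low polysome, and 21.8, 28.5 and 24.6 CPM in the WT high polysome. In KO the Tgfbr1 levels were 4.85, 12.4 and 11.4 CPM in the monosome, 13.5, 11.9 and 17.4 CPM in the low polysome, and 18.4, 12.9 and 10.3 CPM in the high polysome. The genotypes overlapped in the monosome, and all KO libraries were below WT in both polysome fractions. Over all fractions Tgfbr1 fell by 0.53 ± 0.16 on the log2 scale (1.44-fold lower, adjusted p = 0.00594). In the high polysome it fell by 0.89 ± 0.23 (adjusted p = 0.0037), and the differences for Tgfbr1 in the monosome (-0.40 ± 0.32) and low polysome (-0.30 ± 0.25) did not pass the test. Counts of Tgfbr2 over counts of Tgfbr1 in the same library ranged from 0.144 to 0.346 in WT and from 1.63 to 4.29 in KO, so the gene with fewer counts in WT had more in KO.

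Acvr1b, the type I receptor used by Nodal and the activins, rose. In WT it stood at 42.6, 38.6 and 35.0 CPM in the monosome, 58.1, 54.2 and 33.1 CPM in the low polysome, and 65.2, 57.2 and 54.9 CPM in the high polysome. In KO the Acvr1b levels were 62.1, 69.0 and 70.5 CPM, then 73.2, 57.8 and 81.9 CPM, then 75.9, 72.1 and 65.9 CPM in the same fractions. The KO libraries were above WT in the monosome and the high polysome, and the genotypes overlapped in the low polysome. Acvr1b rose by 0.56 ± 0.10 over all fractions (1.47-fold, adjusted p = 8.17e-05) and by 0.81 ± 0.19 in the monosome (adjusted p = 0.00227). In the low polysome it rose by 0.58 ± 0.17 (adjusted p = 0.00806), a value that was 0.33 (adjusted p = 0.0916) without WT gradient 3 and 0.43 (adjusted p = 0.0932) without KO gradient 3. That Acvr1b call was also lost with only the groups compared (0.58, adjusted p = 0.0718) and with the length trend removed (0.42, adjusted p = 0.054). The Acvr1b difference of 0.27 ± 0.17 in the high polysome did not pass the test (adjusted p = 0.182).

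The activin type II receptors differed in level and direction. Acvr2b was the better expressed, at 102, 84.1 and 87.2 CPM in the WT monosome, 201, 179 and 198 CPM in the WT low polysome, and 134, 125 and 134 CPM in the WT high polysome. In KO Acvr2b stood at 97.9, 84.9 and 89.9 CPM, then 139, 167 and 154 CPM, then 105, 117 and 130 CPM. Only in the low polysome were all KO libraries below all WT libraries. There Acvr2b fell by 0.33 ± 0.11 (adjusted p = 0.0219), and over all fractions it fell by 0.16 ± 0.07 (1.12-fold lower, adjusted p = 0.0434). Both Acvr2b calls were lost when WT gradient 1 or 3 or KO gradient 1 was left out, and the call over all fractions also without KO gradient 2, with log2 differences of -0.13 to -0.17 over all fractions and -0.27 to -0.31 in the low polysome. Without the filter on low counts neither Acvr2b call was made (-0.12 and -0.29, adjusted p = 0.156 and 0.0539), and the low polysome call was lost with only its groups in the fit (-0.33, adjusted p = 0.0689). The difference over all fractions was -0.26 with the length trend removed and -0.27 with the fractions summed.

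Acvr2a was scarce, with 5 to 118 counts per library. It stood at 1.99, 6.74 and 3.31 CPM in the WT monosome, 4.53, 4.22 and 4.19 CPM in the WT low polysome, and 8.60, 8.30 and 7.16 CPM in the WT high polysome. In KO the Acvr2a levels were 2.93, 5.56 and 5.39 CPM, then 7.74, 7.77 and 7.98 CPM, then 13.1, 10.2 and 8.49 CPM. All KO libraries were above WT in the low polysome alone. There Acvr2a rose by 0.85 ± 0.27 (adjusted p = 0.0146), and over all fractions by 0.48 ± 0.17 (1.39-fold, adjusted p = 0.0197). The call over all fractions was lost without WT gradient 1 (0.40, adjusted p = 0.0724), WT gradient 3 (0.40, adjusted p = 0.114) or KO gradient 2 (0.43, adjusted p = 0.0679), and with all libraries thinned to one depth the Acvr2a difference was 0.34 (adjusted p = 0.201). It was 0.38 (adjusted p = 0.0541) with the length trend removed. The low polysome call was lost without WT gradient 3 (0.83, adjusted p = 0.0525) and at equal depth (0.51, adjusted p = 0.325).

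The receptor SMADs, which carry the signal to the nucleus, differed little in abundance. Smad2 ranged from 12.7 to 17.9 CPM in the WT monosome, 10.8 to 16.7 CPM in the low polysome and 18.6 to 22.2 CPM in the high polysome. In KO the ranges for Smad2 were 10.2 to 13.3 CPM, 13.7 to 15.8 CPM and 19.6 to 25.5 CPM, and they overlapped with WT in every fraction. The Smad2 difference over all fractions was -0.02 ± 0.11, with a 95% interval from -0.23 to 0.19 (adjusted p = 0.888).

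Smad3 stood at 15.1, 15.6 and 12.8 CPM in the WT monosome and at 7.91, 11.8 and 7.95 CPM in the KO monosome. In the low polysome Smad3 stood at 13.6, 11.8 and 8.88 CPM in WT and 10.9, 12.4 and 12.1 CPM in KO, and in the high polysome at 20.5, 17.4 and 18.6 CPM in WT and 17.8, 20 and 19.8 CPM in KO. Only the monosome separated the genotypes. There Smad3 fell by 0.66 ± 0.21 on the log2 scale (adjusted p = 0.019), a call that depended on WT gradient 2 and on KO gradients 1 and 3, since leaving out any of them lost it, with differences of -0.56 to -0.59. It was also lost without the filter on low counts (-0.57, adjusted p = 0.062). Over all fractions the Smad3 difference was -0.19 ± 0.11 with a 95% interval from -0.40 to 0.03 (adjusted p = 0.143), and -0.29 with a call (adjusted p = 0.0204) with the length trend removed.

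By fraction, 3 of the 10 genes rose and 2 fell in the monosome, where 18.6% of all genes rose and 20.1% fell. Low polysome calls were 4 higher and 2 lower, where 23.4% of all genes rose and 24.3% fell. In the high polysome 1 rose, Tgfbr2, and 2 fell, Lefty2 and Tgfbr1, where 25.3% of all genes rose and 21.1% fell. Tgfbr2 and Lefty2 passed the test in each of the 3.

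**Figure D3:**
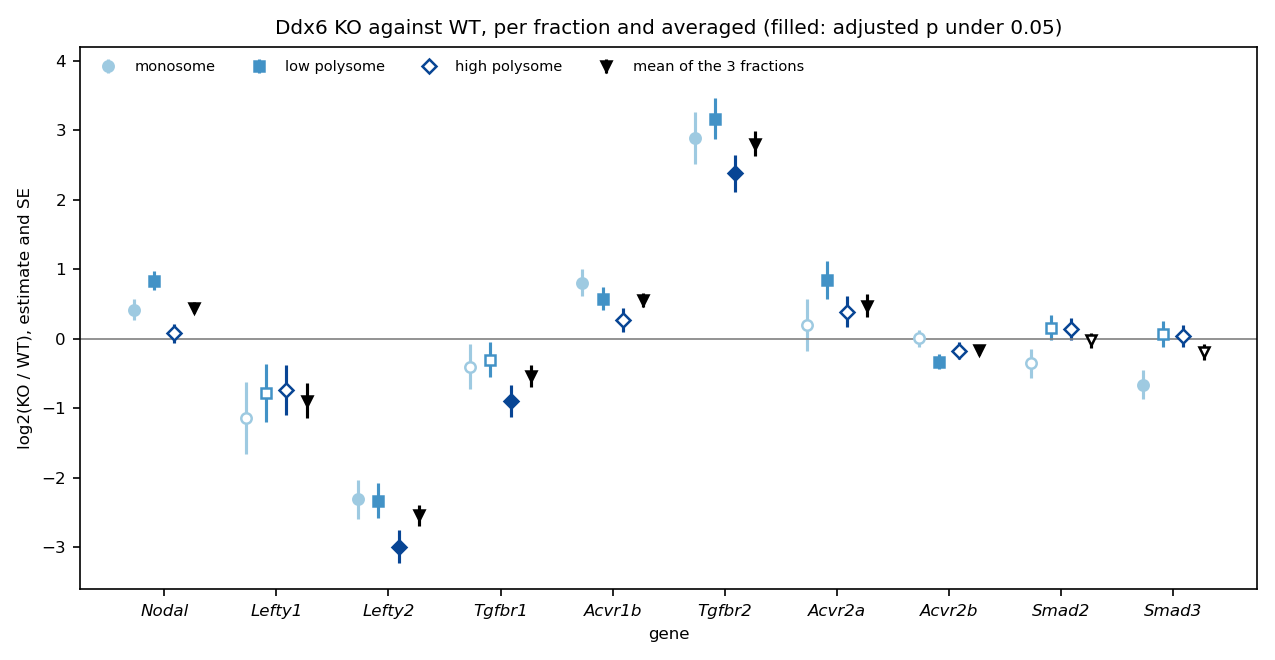
Log2 difference between KO and WT (vertical axis) with its SE for each gene, by fraction and as the mean of the 3 fractions. Filled symbols passed an adjusted p of 0.05 in limma and open symbols did not. Lefty2 lies between -2.99 and -2.31 and Tgfbr2 between 2.38 and 3.17, and the other 8 genes lie between -1.14 and 0.85.

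The order of the 10 genes by level also differed between genotypes. In WT the mean of the 3 fractions was 335 ± 27.8 CPM for Lefty2 (SD over gradients, n = 3), 196 ± 2.9 CPM for Nodal, 138 ± 8.26 CPM for Acvr2b, 48.8 ± 7.22 CPM for Acvr1b and 39.7 ± 3.51 CPM for Lefty1. Below these came Tgfbr1 at 18 ± 1.35 CPM, Smad2 at 16.3 ± 1.59 CPM, Smad3 at 14.9 ± 1.5 CPM, Acvr2a at 5.45 ± 0.845 CPM and Tgfbr2 at 3.9 ± 0.785 CPM. Gradient values overlapped between Acvr1b and Lefty1, between Tgfbr1 and Smad2, and between Smad2 and Smad3, so the order within these pairs is not resolved.

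In KO, Nodal was highest at 262 ± 29.8 CPM, followed by Acvr2b at 121 ± 5.60 CPM, Acvr1b at 69.8 ± 3.27 CPM, Lefty2 at 54.3 ± 15.0 CPM, Tgfbr2 at 27.4 ± 0.592 CPM and Lefty1 at 25.0 ± 12.5 CPM. Smad2 stood at 16.5 ± 0.725 CPM, Smad3 at 13.4 ± 1.28 CPM, Tgfbr1 at 12.6 ± 0.431 CPM and Acvr2a at 7.69 ± 0.355 CPM. Overlapping neighbours in KO were Tgfbr2 and Lefty1, Lefty1 and Smad2, and Smad3 and Tgfbr1. Lefty2 passed from the 95.6 percentile of all tested genes by level in WT to the 68.7 percentile in KO, and Tgfbr2 from the 13.1 to the 51.5 percentile.

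Translation level was taken as abundance in the high polysome over abundance in the monosome. Of the 10 genes, 8 passed the test with a level in WT that was higher in the high polysome, and 0 passed with a lower one, where 28.9% of all genes were higher and 32.2% lower. The median of the 10 was 0.82 on the log2 scale beside -0.02 for all genes and 0.15 for the 4526 genes with a coding sequence of 1000 to 2000 bases, the range that holds all 10. Longer coding sequences carry more ribosomes, so length bears on this ratio. Lefty2 had the largest value, 2.10 ± 0.25 (adjusted p = 3.05e-07), which put it at the 99.6 percentile of all genes. Lefty1 followed with 1.35 ± 0.44 (adjusted p = 0.012) and Nodal with 1.19 ± 0.15 (adjusted p = 6.82e-07).

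Among the receptors the WT translation level was 1.08 ± 0.29 for Tgfbr1 (adjusted p = 0.00302), 1.02 ± 0.35 for Acvr2a (adjusted p = 0.0151), 0.62 ± 0.19 for Acvr1b (adjusted p = 0.00841) and 0.54 ± 0.12 for Acvr2b (adjusted p = 0.000691). Acvr2b peaked in the low polysome in all 3 gradients of each genotype. Smad2 was at 0.46 ± 0.20 (adjusted p = 0.0491). The genes that did not pass were Tgfbr2 at 0.46 ± 0.42 (adjusted p = 0.354) and Smad3 at 0.38 ± 0.19 (adjusted p = 0.0977). The WT calls of Lefty1, Acvr2a and Smad2 were lost in single leave-outs, and without WT gradient 3 all 3 were lost, which left 5 of the 10 genes called. At equal depth Acvr2a (0.75, adjusted p = 0.0985) and Smad2 (0.46, adjusted p = 0.0746) lost the call and Smad3 gained it (0.49, adjusted p = 0.0448). Smad2 also lost it with the length trend removed (0.35, adjusted p = 0.129), and Smad3 gained it without the filter (0.50, adjusted p = 0.0414).

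In KO 7 of the 10 genes were higher in the high polysome and 0 were lower, where 35.0% of all genes were higher and 33.6% lower. Lefty1 had the largest KO value at 1.75 ± 0.46 (adjusted p = 0.00201), then Lefty2 at 1.43 ± 0.27 (adjusted p = 0.000106), Acvr2a at 1.21 ± 0.26 (adjusted p = 0.000338) and Smad3 at 1.07 ± 0.18 (adjusted p = 2.74e-05). Smad2 was at 0.95 ± 0.18 (adjusted p = 7.35e-05), Nodal at 0.84 ± 0.14 (adjusted p = 2.53e-05) and Acvr2b at 0.37 ± 0.12 (adjusted p = 0.00887). The Acvr2b call was lost without KO gradient 2 (0.32, adjusted p = 0.0723) or 3 (0.30, adjusted p = 0.0936) and with the length trend removed (0.13, adjusted p = 0.312). The receptors that did not pass were Tgfbr1 at 0.59 ± 0.27 (adjusted p = 0.0594), Acvr1b at 0.08 ± 0.17 (adjusted p = 0.67) and Tgfbr2 at -0.05 ± 0.19 (adjusted p = 0.824). The Tgfbr1 value rested on clone 1: it was -0.05 without KO gradient 1, and 0.87 and 0.99 with a call (adjusted p = 0.0284 and 0.0111) without KO gradient 2 or 3. The Acvr2a value in KO was 0.76 (adjusted p = 0.0197) without KO gradient 1.

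**Figure D4:**
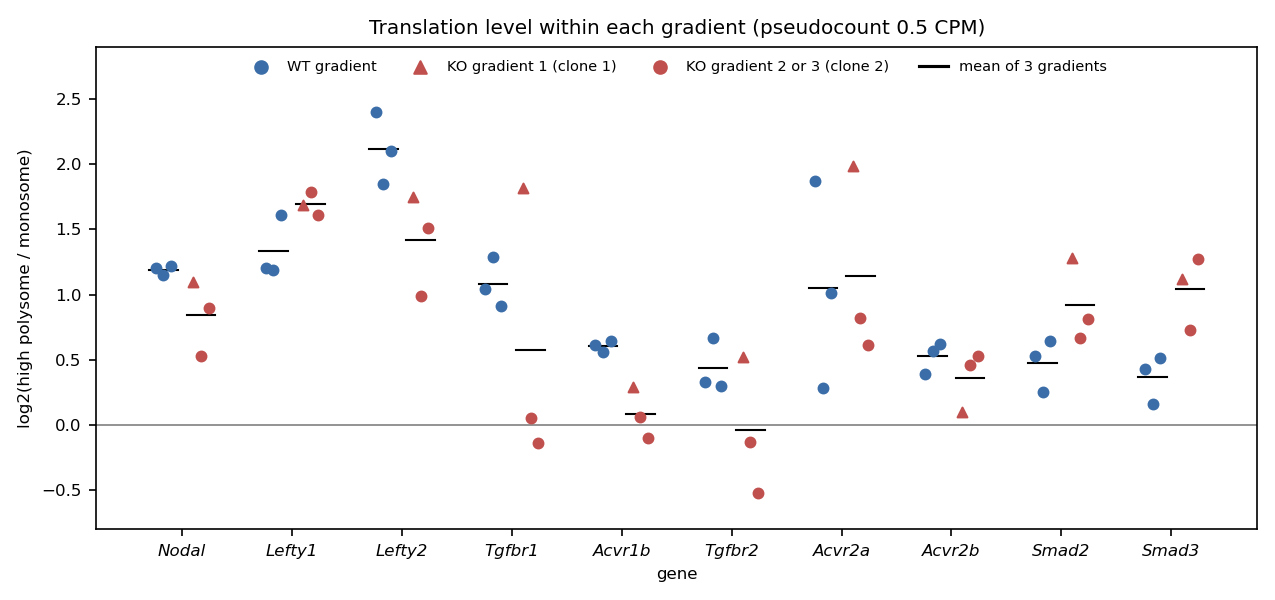
Log2 ratio of high polysome to monosome CPM (vertical axis, with 0.5 CPM added to both) within each gradient. Blue points are WT gradients, red triangles the KO gradient of clone 1, red circles the KO gradients of clone 2, and bars the mean of 3 gradients. Lefty2 lies at 1.85 to 2.40 in WT and 0.99 to 1.75 in KO, Smad3 at 0.16 to 0.51 in WT and 0.73 to 1.27 in KO, and for Tgfbr1 the KO gradient of clone 1 (1.82) stands apart from those of clone 2 (0.05 and -0.14).

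The KO effect on translation level, the KO ratio less the WT ratio, was called for none of the 10 genes in the limma fit, and 2 of the 10, Smad3 and Acvr1b, had an unadjusted p under 0.05. The quasi-likelihood test of edgeR and the Wald test of DESeq2 also called 0 of the 10. Of all genes, 10.7% rose and 7.09% fell in this comparison. That split turned with the scaling, since 1357 genes rose and 901 fell with TMM factors while 936 rose and 1386 fell with library size alone. The median of the 10 genes was -0.26 beside 0.02 for all genes.

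In single gradients this ratio separated the genotypes for Nodal, Lefty1, Lefty2, Acvr1b, Smad2 and Smad3, each with an exact permutation p of 0.1. That is the smallest p possible with 3 gradients against 3, and the share of all genes that separate was not counted. For Lefty1 the nearest WT and KO values were both 1.61 after rounding. Smad2 stood at 0.53, 0.25 and 0.64 in WT and 1.28, 0.67 and 0.81 in KO. For Lefty2 the log2 ratio was 2.40, 1.85 and 2.10 in WT gradients 1 to 3 and 1.75, 0.99 and 1.51 in KO, so all KO values were lower. The KO effect on the translation level of Lefty2 was -0.67 ± 0.37 with a 95% interval from -1.39 to 0.05 (adjusted p = 0.211). Fractions of one gradient come from one lysate, and with the gradient as a block the effect for Lefty2 was -0.69 with a call (adjusted p = 0.0457). Without the clone 1 gradient it was -0.84 (adjusted p = 0.0188), and with only the 4 groups compared in the fit it was -0.76 (adjusted p = 0.041).

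Smad3 differed in the opposite direction, at 0.43, 0.16 and 0.51 in WT gradients and 1.12, 0.73 and 1.27 in KO gradients, with no overlap. The KO effect for Smad3 was 0.70 ± 0.27 (adjusted p = 0.0732), and with the gradient as a block it was 0.71 with a call (adjusted p = 0.0489). Acvr1b stood at 0.61, 0.56 and 0.64 in WT and 0.29, 0.06 and -0.10 in KO. Its effect was -0.54 ± 0.25 (adjusted p = 0.145), and -0.63 with a call (adjusted p = 0.0174) when only the groups compared entered the fit. Neither the Smad3 nor the Acvr1b call held in the other fits named here.

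Nodal stood at 1.2, 1.15 and 1.22 in WT gradients and 1.10, 0.53 and 0.90 in KO gradients, and its effect was -0.35 ± 0.20 (adjusted p = 0.247). Tgfbr1 stood at 1.04, 1.29 and 0.91 in WT and 1.82, 0.05 and -0.14 in KO, so clone 1 lay above all WT gradients and clone 2 below them. The effect for Tgfbr1 was -0.49 ± 0.40 (adjusted p = 0.416). Without the clone 1 gradient both were called lower, Nodal at -0.48 (adjusted p = 0.0481) and Tgfbr1 at -1.13 (adjusted p = 0.0147). Clone 1 had 1 gradient, so clone and gradient cannot be told apart.

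The effect was 0.49 ± 0.26 for Smad2 (adjusted p = 0.205), 0.40 ± 0.63 for Lefty1 (adjusted p = 0.70), 0.19 ± 0.43 for Acvr2a (adjusted p = 0.799), -0.18 ± 0.17 for Acvr2b (adjusted p = 0.495) and -0.51 ± 0.46 for Tgfbr2 (adjusted p = 0.465). The 95% intervals were wide for the scarcer or more variable genes, from -0.84 to 1.64 for Lefty1, from -0.66 to 1.04 for Acvr2a and from -1.41 to 0.39 for Tgfbr2. The estimated differences of Tgfbr2 (2.81) and Lefty2 (-2.54) in abundance were larger than that of any of the 10 genes in translation level.

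The low polysome over the monosome gave 0 calls among the 10 genes in limma, edgeR and DESeq2, with 1 unadjusted p under 0.05 in limma, where 2.31% of all genes rose and 2.39% fell. The largest value was that of Smad3, 0.72 ± 0.28 (adjusted p = 0.147), with gradient ratios of -0.15, -0.38 and -0.51 in WT and 0.44, 0.06 and 0.58 in KO. Nodal had 0.41 ± 0.21 (adjusted p = 0.264), from 0.47, 0.25 and 0.36 in WT and 0.66, 0.85 and 0.80 in KO. The genotypes did not overlap for either gene, nor for Lefty1 or Acvr2b, each at the smallest exact permutation p of 0.1. The share of all genes that separate in this ratio was not counted. With 2 CPM added in place of 0.5, Lefty1 did overlap (exact permutation p = 0.2). It then stood at 0.5, 0.28 and 0.54 in WT and at 0.51, 1.02 and 0.61 in KO.

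Other genes of the pathway were taken from a list of 45, of which 39 passed the filter. Over all fractions 11 of the 39 rose and 15 fell in KO, with a median of -0.12. Among all genes 30.6% rose and 31.5% fell with a median of -0.02, so the counts of the 39 were not far from those shares. The counts by role that follow are of 4 to 9 tested genes each and are descriptions to be read beside the same shares. Tgfb1, Tgfb2, Ltbp3 and Inha reached the filter of 3 CPM in 3 libraries only with KO libraries counted. Cfc1 and Gsc reached it through WT libraries alone. Each of these genes thus passed through the genotype where it was higher, so its direction is tied to the filter and is a description. Among the ligands 4 of 5 tested rose and 0 fell. They included Inhbb, a subunit of activin B, which rose by 1.44 ± 0.14 (adjusted p = 1.24e-08), and the scarce Tgfb1 and Tgfb2, which encode TGF-beta ligands and rose by 1.24 ± 0.27 and 1.16 ± 0.32 (adjusted p = 0.000478 and 0.00356). The fourth, Gdf3, rose by 0.70 ± 0.08 (adjusted p = 1.2e-07).

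Of the 5 genes for ligand processing and latency, 2 rose and 3 fell. Ltbp3 and Ltbp1, which bind latent TGF-beta, went in opposite directions, with 1.79 ± 0.24 and -1.40 ± 0.15 (adjusted p = 1.88e-06 and 8.57e-08). Pcsk6, a protease that matures Nodal, fell by 0.84 ± 0.07 (adjusted p = 5.05e-09). Of 5 co-receptors and other receptors 1 rose and 2 fell, the latter being Cfc1, a Nodal co-receptor present at 0.109 to 4.97 CPM (-1.82 ± 0.35, adjusted p = 0.000139), and Eng, a TGF-beta co-receptor (-0.82 ± 0.13, adjusted p = 1.31e-05). Of 4 inhibitors, Inha rose by 1.13 ± 0.26 (adjusted p = 0.000786) and the activin-binding Fst fell by 1.02 ± 0.22 (adjusted p = 0.000455).

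Among 9 SMADs and SMAD partners, 1 rose and 4 fell. Smad7, the inhibitory SMAD that the pathway induces, rose by 0.61 ± 0.07 (adjusted p = 1.48e-07). Trim33, which binds SMAD2 and SMAD3, and Tgif2, a SMAD co-repressor, fell by 0.59 ± 0.12 and 0.51 ± 0.07 (adjusted p = 0.000214 and 2.69e-06). Of 6 genes for SMAD turnover 0 rose and 3 fell, Usp15, Ppm1a and Pmepa1, with differences of -0.39 ± 0.13, -0.37 ± 0.08 and -0.30 ± 0.11 (adjusted p = 0.0155, 0.000389 and 0.0217). The Usp15 and Pmepa1 calls were lost in leave-outs of single gradients.

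Among the 5 downstream genes tested, 2 rose and 2 fell. Gsc, which Nodal signalling induces in the embryo, fell by 1.49 ± 0.26 (adjusted p = 4.55e-05). Id1, best known as a target of the related BMP ligands, rose by 1.99 ± 0.13 (adjusted p = 4.19e-11). Id1 ranged from 3.19 to 8.0 CPM in WT libraries and from 16.2 to 24.5 CPM in KO libraries, with no overlap.

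**Figure D5:**
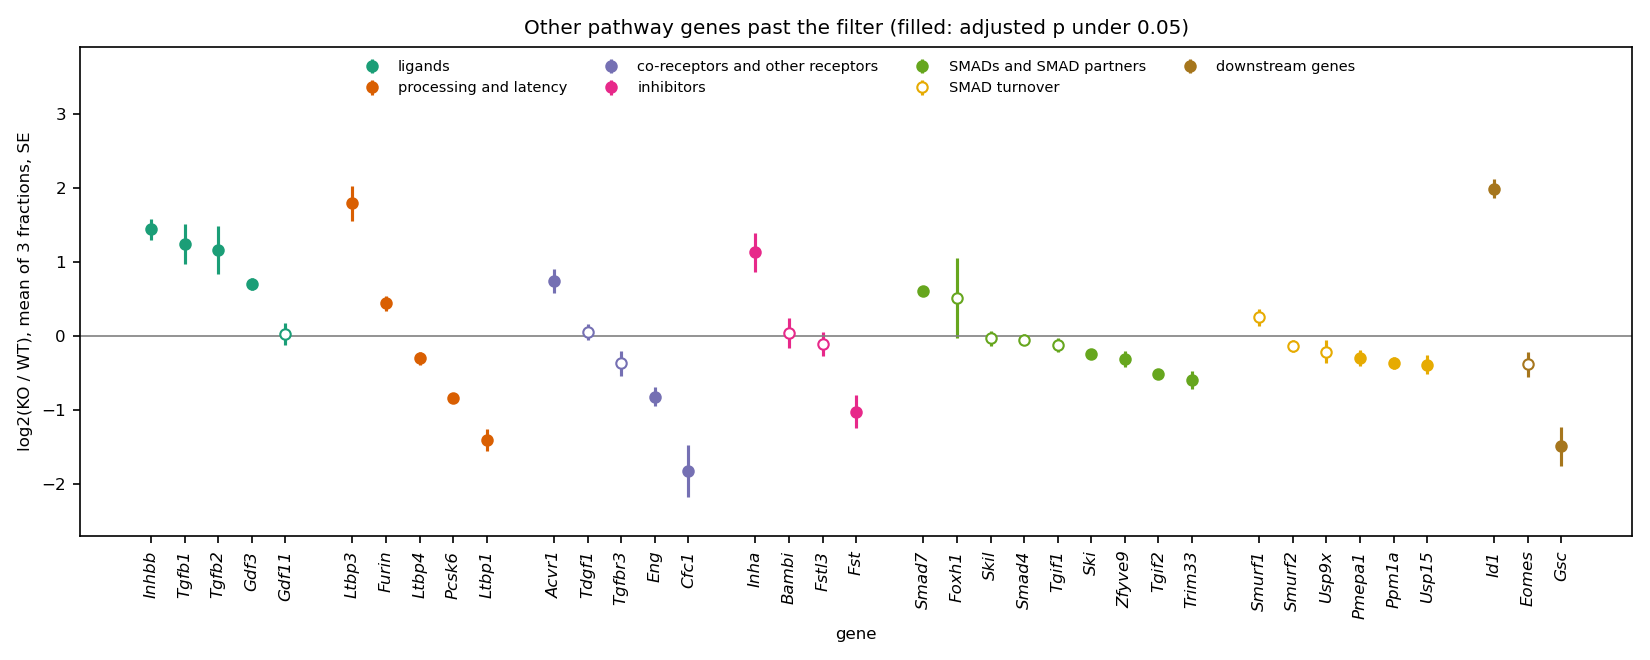
Log2 difference between KO and WT as the mean of the 3 fractions (vertical axis) with its SE for the other pathway genes past the filter that are reported singly, grouped and coloured by role. Filled symbols passed an adjusted p of 0.05 in limma and open symbols did not. The values run from -1.82 (Cfc1) to 1.99 (Id1).

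The profiles over the 18 libraries were compared by the root mean square difference of log2 CPM centred on each gene's mean, which is a description over libraries that share their depth and fraction. For Nodal the nearest of 12705 genes were Scamp2 (0.129), Degs1 (0.130) and Fads1 (0.146). Among the other members Acvr2a was the nearest to Nodal at rank 764, and Lefty2 the farthest at rank 11653. For Lefty2 the nearest genes were Col13a1 (0.447), Islr2 (0.455) and Slc4a5 (0.494), with Lefty1 at rank 110 (0.931). For Lefty1 they were Atp7b (0.422), Scarb2 (0.437) and Gamt (0.471), and the nearest of the other pathway members studied was Tgfbr1 at rank 460.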

How the data were processed

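Polysome profiling was done by the authors on 3 WT and 3 Ddx6 KO gradients, and 3′ end libraries were prepared from 3 fractions of each with the QuantSeq 3′ FWD kit. Per the submitters' processing notes and the file headers, reads were trimmed with cutadapt 1.14, aligned with STAR 2.5.3a to mm10 and counted by strand with featureCounts 1.5.3 on the Gencode M14 basic annotation with spike-in sequences added. The deposited values were raw counts per gene from uniquely aligned reads, so reads shared by near-identical genes are missing. No molecular identifiers are mentioned, so PCR copies may be among the counts.

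Symbols and 3′ UTRs come from the Gencode M21 annotation, on the same assembly, which matched 51274 of 51467 gene identifiers. Spike-ins held at most 0.00217% of the counts of a library and were left out. Genes with at least 3 CPM in at least 3 libraries were kept (99.6% of counts). TMM factors from edgeR 4.0.16 were used for scaling, and limma 3.58.1 with voom, under R 4.3.3, was used to fit the means of the 6 groups to 18 libraries. Tests were two-sided, and calls were made at an adjusted p under 0.05 over all 12705 genes. The study's methods name limma, the filter and an interaction, while TMM and voom were chosen here. Under TMM the bulk of genes is taken as unchanged, so a difference is relative to the other genes.

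Ratios within a gradient had 0.5 CPM added to each fraction. Comparing 3 gradients with 3, an exact permutation test cannot give a p below 0.1, so these ratios are given as descriptions. For each gene the annotated principal transcript with the longest coding sequence was used for the site search. The fractions of one gradient come from one lysate, so a gradient block was fitted as an alternative for the ratios between fractions. For abundance over all fractions no gradient block was fitted, and the fractions were summed per gradient instead. Deviations from the group means of libraries of one gradient correlated with r from -0.16 to 0.41 (median 0.08, 18 pairs).

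The fit was tested on simulated counts for the KO effect on translation level over 12705 genes. It called 44% and 42% of 50 genes each raised or lowered by 1 on the log2 scale, 94% of those changed by 2 in either direction, and 0.056% of unchanged genes. Few genes were changed, none of them among the scarcest, and all libraries were drawn independently. In the data 10.7% of genes rose and 7.09% fell, and fractions share a lysate, so the simulated shares do not carry over. Alternatives were DESeq2 1.42.0 size factors and Wald test, library size alone, no filter, the edgeR quasi-likelihood test, fewer groups in the fit, blocks, leave-outs of single gradients, equal depth, a coding length correction, summed fractions and other pseudocounts. Named genes were the 10 members, Ddx6, at most 3 genes per role of the pathway list with the largest called difference and those called in the translation level comparison, and the 3 nearest profiles of Nodal, Lefty1 and Lefty2. Gdf3 and the called naive and primed markers were named after their values had been seen, and 2 genes of the pathway list enter its counts but are not reported here singly. The members and lists were chosen with earlier results of these data known.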

Additional observations from a re-analysis of the deposited data

Results flagged for a closer look

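Of the 39 other pathway genes tested, 4 had a called KO effect on the ratio of high polysome to monosome in limma. The calls were of the interaction term, with 3 higher and 1 lower, where 10.7% of all genes rose and 7.09% fell. They were thus no more frequent than among all genes. Tdgf1, a Nodal co-receptor, had a KO effect of -1.16 ± 0.26 (SE, adjusted p = 0.00488), with alternatives from -1.52 to -0.67, and the call was lost without KO gradient 3 and with the coding length trend removed. It stood at 769 to 937 CPM in the WT high polysome and 440 to 694 CPM in the KO high polysome, and at 542 to 570 CPM in the WT monosome and 640 to 980 CPM in the KO monosome. The ligand gene Gdf11 had an effect of 1.15 ± 0.38 (adjusted p = 0.0396) and lost its call under 12 of 16 alternatives. Ltbp4, which belongs to the family of latent TGF-beta binding proteins, had an effect of 0.74 ± 0.23 (adjusted p = 0.0296), ranged from 0.16 to 0.98 and lost its call under 8 of 16. Smad7 had an effect of 0.55 ± 0.17 (adjusted p = 0.0297) and lost its call under 10 of 16. All 4 kept their direction under each of the 16 alternatives.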

How the results depend on the processing

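Over all fractions, the rise of Tgfbr2 and the fall of Lefty2 kept direction and call under every alternative run, as did the differences of Nodal, Lefty1, Tgfbr1 and Acvr1b. The effects listed below changed sign under at least 1 setting, and the cause was not tested. They were not all near 0, since Tgfbr1 stood at 0.59 for translation level in KO and at -0.40 in the monosome. Among the 10 genes, the KO effect on translation level had 0 calls in either direction with TMM, and 1 higher and 1 lower with the gradient as a replicate block, 2 lower with only the groups compared, and 0 to 3 lower over the leave-outs. The replicate block by number (WT n with KO n, which share only a number, r from -0.45 to 0.37) left 0 calls and moved the count over all genes from 1357 higher and 901 lower to 1469 and 1042. Genes higher in the WT high polysome numbered 5 to 8 over the leave-outs. Genes lower in the monosome numbered 1 without a filter and 1 to 2 over the leave-outs. In the low polysome 1 fell without a filter or with only the groups compared, 1 to 2 fell over the leave-outs, and 2 to 4 rose.

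Sign changes under other settings were as follows. For the KO effect on the low polysome ratio, Lefty2 was at 0.00 in edgeR and DESeq2, and Tgfbr1 at -0.01 in both and at -0.07 with the coding length trend removed. Acvr1b translation level in KO was -0.02 with library size alone and -0.15 with the length trend removed. Acvr2b in the monosome was -0.01 with DESeq2 size factors and in its Wald test and -0.03 at equal depth. In the low polysome, removing the length trend gave -0.03 for Smad2 and -0.12 for Smad3. Smad2 over all fractions was 0.02 without a filter. Smad3 in the high polysome was -0.03 with DESeq2 size factors, -0.02 with library size alone, -0.04 in the Wald test, -0.16 at equal depth and -0.05 with the length trend removed.

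Leave-outs of 1 gradient gave sign changes within these ranges. For KO against WT, Nodal ranged from -0.01 to 0.14 in the high polysome and Tgfbr1 from -0.65 to 0.02 in the monosome. For the low polysome ratio Lefty2 ranged from -0.20 to 0.07 and Tgfbr1 from -0.28 to 0.48. For translation level in KO, Tgfbr1 ranged from -0.05 to 0.99, Acvr1b from -0.02 to 0.20 and Tgfbr2 from -0.34 to 0.21. For the KO effect, Acvr2a ranged from -0.26 to 0.45.
For KO against WT, Acvr2a ranged from -0.06 to 0.65 and Acvr2b from -0.05 to 0.10 in the monosome, Smad2 from -0.10 to 0.04 over all fractions, and Smad3 from -0.11 to 0.22 in the low and from -0.02 to 0.09 in the high polysome.

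The WT monosome libraries set the depth limit, with as few as 5 counts of Acvr2a and 9 of Tgfbr2. Without any filter 27427 genes were tested in place of 12705, and 10866 in place of 4086 were lower in the WT high polysome and 3929 in place of 2548 fell in the monosome. Over all genes, the KO effect on translation level gave 466 to 1500 higher and 276 to 1116 lower calls over the leave-outs, 473 and 316 with the length trend removed, 1375 lower in the Wald test and 1744 lower with only the groups compared. The low polysome ratio gave 294 higher and 304 lower calls with TMM, 553 and 534 in the Wald test, 162 and 125 with only the groups compared, 126 and 39 with the length trend removed, 195 and 191 at equal depth, 494 lower with library size alone, and 6 lower to 482 higher over the leave-outs.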
